A study of Homo sapiens with 6 samples.

Results

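The genes described here are 10 neuronal cytoskeleton and growth cone genes, DCX, TUBB3, MAP2, MAPT, MAP1B, STMN1, STMN2, STMN3, STMN4 and GAP43, selected by gene symbol from a table of 59151 genes. All 10 were present, each under 1 symbol, and all 10 exceeded the mean of 1 FPKM (fragments per kilobase, a level scaled to gene length and sequencing depth) that 18162 genes reached over the 6 libraries. The cells were forebrain neuron progenitors at day 26, which the labels also call forebrain neurons, all grown from the 1 human embryonic stem cell line H9. There were 3 groups of 2 libraries. The shRNA2 and shRNA1 groups each carried a different hairpin RNA against circRTN4(2,3), a circular RNA formed from the RTN4 gene, and the scramble group, labelled WT, carried a control hairpin. Total RNA was depleted of ribosomal RNA before sequencing. The labels number the replicates without saying whether they were separate cultures, so p-values measure only how far these libraries differ, possibly for technical reasons. The series asks what circRTN4(2,3) does, and the question followed here is how the RNA of these neuronal genes differed with each hairpin.

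Microtubules are polymers of alpha and beta tubulin that carry transport along axons and dendrites, and the neuron sets their growth with proteins that bind the polymer, such as doublecortin, tau and the MAP1 and MAP2 proteins, or that bind free tubulin dimers, such as the stathmins. The growth cone, at the tip of an extending axon, joins these microtubules to actin under a membrane rich in GAP-43. DCX and TUBB3 are widely used to mark newborn neurons among neural progenitors.

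RefSeq start site windows (build GRCh38.p14) were matched for 7 of the 10 genes by symbol. Per gene, the start with the largest number of coding transcripts beginning within 50 bases was taken. That number was only 1 for MAP2, MAP1B and GAP43. The 250 bases before the start were read 5′ to 3′ on the gene's strand. The windows of DCX (chrX:111412193-111412442, minus strand), GAP43 (chr3:115623260-115623509, plus strand), STMN1 (chr1:25906420-25906669, minus strand) and TUBB3 (chr16:89923092-89923341, plus strand) are shown because DCX, GAP43 and STMN1 had the smallest p-values of the 10 for shRNA2 against scramble, while TUBB3 differed most between the scramble replicates. Capitals mark the E-box letters CANNTG, which read the same on both strands and are recognised by proneural factors among many other basic helix-loop-helix proteins.
DCX: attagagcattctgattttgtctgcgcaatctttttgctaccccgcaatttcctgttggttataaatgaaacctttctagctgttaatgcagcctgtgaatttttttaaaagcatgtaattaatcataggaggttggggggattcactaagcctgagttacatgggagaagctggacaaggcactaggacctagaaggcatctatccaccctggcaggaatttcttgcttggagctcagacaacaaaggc
GAP43: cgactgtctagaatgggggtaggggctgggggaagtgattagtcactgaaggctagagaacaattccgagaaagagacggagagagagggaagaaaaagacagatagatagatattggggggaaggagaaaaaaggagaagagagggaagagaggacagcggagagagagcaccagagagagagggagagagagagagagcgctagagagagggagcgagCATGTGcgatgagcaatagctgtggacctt
STMN1: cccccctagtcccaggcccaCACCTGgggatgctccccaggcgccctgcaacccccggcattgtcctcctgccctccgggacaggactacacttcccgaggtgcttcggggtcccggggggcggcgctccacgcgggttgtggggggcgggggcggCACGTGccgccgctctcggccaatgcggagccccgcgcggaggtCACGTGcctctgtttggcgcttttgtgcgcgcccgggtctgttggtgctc
TUBB3: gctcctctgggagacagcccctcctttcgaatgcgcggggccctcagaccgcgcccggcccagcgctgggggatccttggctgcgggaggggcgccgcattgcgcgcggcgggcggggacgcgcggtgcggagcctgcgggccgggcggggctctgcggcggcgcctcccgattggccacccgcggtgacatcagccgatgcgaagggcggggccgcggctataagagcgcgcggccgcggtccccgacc
The GC content of these windows was 42.8% for DCX, 51.6% for GAP43, 73.2% for STMN1 and 78.0% for TUBB3. STMN1 held 3 matches, GAP43 held 1 and MAP2, whose window is not shown, held 1. DCX, TUBB3, MAP1B and STMN3 held none in these windows. CANNTG stood in 61.8% of the 35116 windows of this length in the RefSeq table, against 3 of the 7 windows of these genes, and a match describes letters only.

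The totals behind the FPKM values were 79949303 to 83629504 reads in the shRNA2 libraries, 78488667 to 82353637 in the shRNA1 libraries, and 46634855 and 77187298 in scramble replicates 1 and 2. Replicates of scramble were less alike than those of either hairpin: the median SD of log2(FPKM + 1) over all tested genes was 0.0452 in shRNA2, 0.0355 in shRNA1 and 0.109 in scramble. RTN4, the host gene, had 31.23 and 31.31 FPKM in shRNA2, 34.19 and 34.74 FPKM in shRNA1, and 40.34 and 38.50 FPKM in scramble. These values mix the linear and circular RNAs of the gene, so they check the labels only indirectly. On the log2(FPKM + 1) scale the fold change against scramble was -0.32 with shRNA2 (adjusted p = 0.0756) and -0.19 with shRNA1 (adjusted p = 0.419). Reads on the 10 genes ranged from about 1680 for STMN4 to about 238623 for MAP1B, which puts the counting error of the lowest value of each gene between 0.27% and 2.44%. This covers counting error only. In such bulk libraries fewer neurons and less neuronal RNA per cell cannot be told apart.

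All 10 genes were expressed in every library, over a range of levels set by MAP1B at the top and MAPT at the bottom. Levels are given as mean FPKM ± SD over the 2 libraries of a group. FPKM is already scaled to gene length, so genes can be compared roughly with each other. That scaling leaves in the differences between libraries that followed GC content, given further on. In scramble the order was MAP1B, DCX, STMN2, MAP2, GAP43, STMN1, TUBB3, STMN3, STMN4 and MAPT. The same order held in both shRNA1 libraries. In shRNA2 it differed in 1 place, with STMN2 at 97.8 ± 1.35 FPKM above DCX at 95.7 ± 1.04 FPKM. In scramble TUBB3 (37.4 ± 10.4 FPKM) did not differ from its neighbour STMN1 (45.8 ± 0.667 FPKM) beyond the replicate spread, nor did STMN3 (14.9 ± 3.77 FPKM) from STMN4 (11.5 ± 0.842 FPKM). The summed level of the 10 genes was 601.8 and 604.2 FPKM in shRNA2, 697.7 and 702.6 FPKM in shRNA1, and 692.6 and 672.1 FPKM in scramble, so that both shRNA2 libraries lay below the other 4. The FPKM sum of all genes differed by library too. It was 1.835e+05 and 1.793e+05 in shRNA2, 2.042e+05 and 1.991e+05 in shRNA1, and 1.842e+05 and 2.377e+05 in scramble replicates 1 and 2. The sums of the 10 genes were not scaled to these, and as a share of them shRNA2 was not below every other library.

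**Figure D1:**
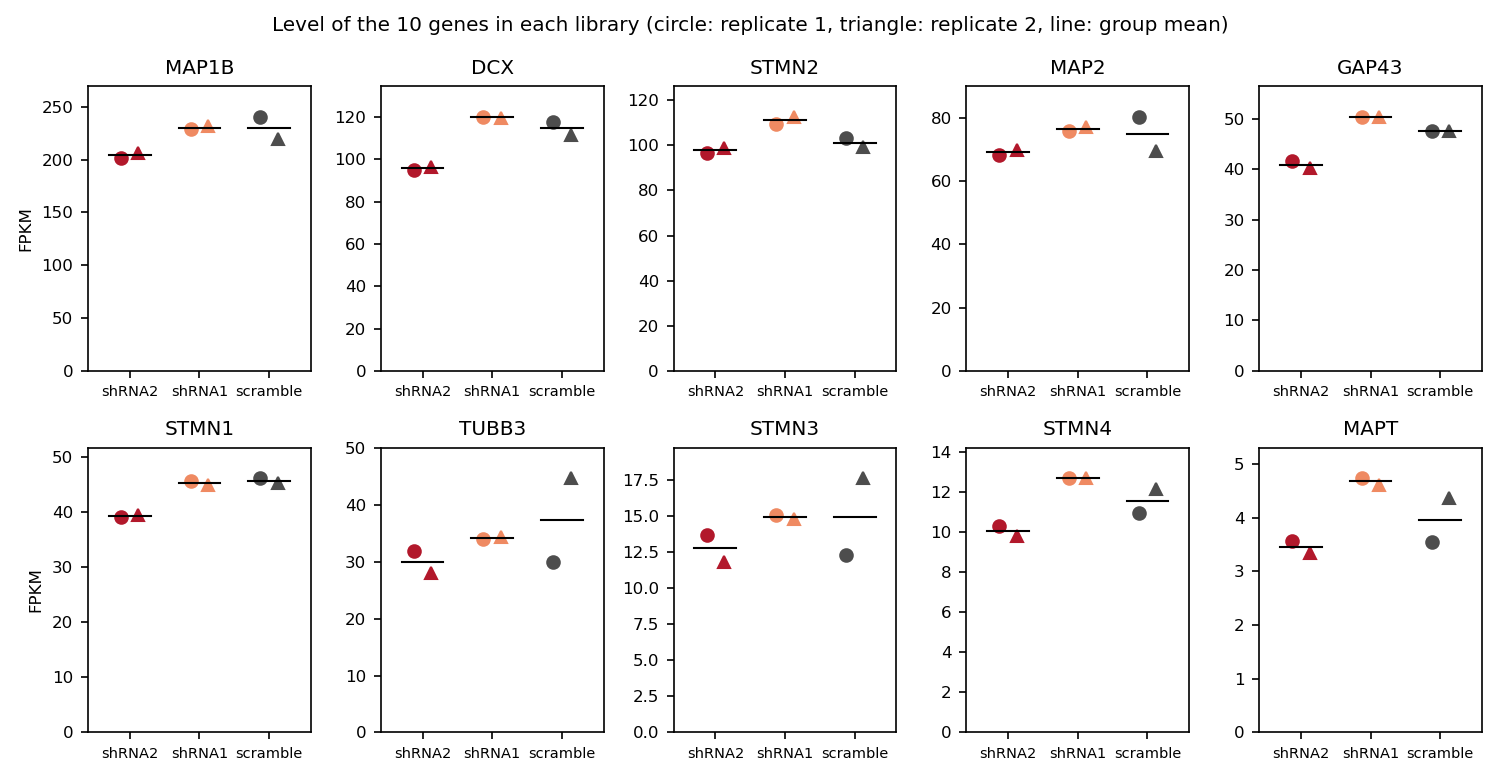
FPKM of each gene in the 6 libraries, by group (shRNA2, shRNA1, scramble), with circles for replicate 1, triangles for replicate 2 and lines for group means; each panel has its own axis from 0. Both shRNA2 libraries lie below both shRNA1 libraries in all 10 panels, while the scramble points of TUBB3 (30.07 and 44.80 FPKM) and STMN3 (12.28 and 17.62 FPKM) are widely apart.

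With shRNA2, deposited values of 6 of the 10 genes lay below scramble without overlap of the libraries, a pattern shown by 34.4% of all tested genes. With shRNA1, 5 of the 10 lay above scramble without overlap, against 15.8% of all tested genes. None passed the test in any comparison, in which limma with Benjamini-Hochberg adjustment over all 18162 genes called a gene at an adjusted p under 0.05. The test called 0.628% of all genes for shRNA2 against scramble, 0.033% for shRNA1 against scramble, 0.0826% for both hairpins against scramble, and 0% for shRNA2 against shRNA1. At an unadjusted p under 0.05 there were 4 of the 10 genes for shRNA2 against scramble (19.2% of all genes), none for shRNA1 against scramble (8.97%), 1 for both hairpins against scramble (13.8%) and 6 for shRNA2 against shRNA1 (16.1%). All fold changes below are differences of mean log2(FPKM + 1), which understate the change of low genes, slightly for MAPT and far more for genes near or below 1 FPKM such as DYNC1I1 and TTR, named further on.

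Among the proteins that bind and stabilise the microtubule lattice, DCX encodes doublecortin, which bundles microtubules in migrating newborn neurons and is mutated in lissencephaly. The gene lies on chrX:111293779-111412429, minus strand (GENCODE v29 on GRCh38, as are the gene positions that follow). DCX had 94.93 and 96.40 FPKM in shRNA2, 120.2 and 119.6 FPKM in shRNA1, and 117.8 and 111.6 FPKM in scramble. The 3 groups did not overlap, with shRNA2 lowest and shRNA1 highest. The log2 fold change of shRNA2 against scramble was -0.26 (SE 0.059, 95% interval -0.41 to -0.11, adjusted p = 0.132), or 0.836-fold. That of shRNA1 against scramble was 0.06 (interval -0.09 to 0.21, adjusted p = 0.861), and that of shRNA2 against shRNA1 was -0.32 (interval -0.47 to -0.17, adjusted p = 0.141). The direction against scramble depended on scaling, since quantile normalization turned the shRNA2 value to 0.12.

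MAP1B, on chr5:72107234-72209570, plus strand, encodes an early microtubule-associated protein of growing axons and had the highest level of the 10. MAP1B had 201.5 and 206.7 FPKM in shRNA2, 229.4 and 231.4 FPKM in shRNA1, and 240.8 and 219.8 FPKM in scramble. Both shRNA2 libraries were the lowest, and shRNA1 lay between the scramble replicates. For shRNA2 against scramble the log2 fold change was -0.17 (interval -0.37 to 0.02, adjusted p = 0.302), and 0.08 under quantile normalization.

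MAP2 encodes the main dendritic microtubule-associated protein and lies on chr2:209424058-209734118, plus strand. Its level was 68.25 and 69.81 FPKM in shRNA2, 75.71 and 77.11 FPKM in shRNA1, and 80.34 and 69.38 FPKM in scramble. The scramble replicates spanned the values of both hairpin groups, apart from 1 shRNA2 library below them. Against scramble, the shRNA2 log2 fold change was -0.11 (interval -0.32 to 0.10, adjusted p = 0.507), and 0.12 under quantile normalization.

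MAPT, which encodes tau, the axonal microtubule-associated protein that aggregates in Alzheimer disease, was the least abundant. It lies on chr17:45894382-46028334, plus strand. MAPT had 3.565 and 3.338 FPKM in shRNA2, 4.741 and 4.612 FPKM in shRNA1, and 3.554 and 4.366 FPKM in scramble. Both shRNA1 libraries exceeded scramble, and shRNA2 overlapped scramble replicate 1. Between the hairpins MAPT had a log2 fold change of -0.35 for shRNA2 against shRNA1 (SE 0.0915, interval -0.58 to -0.12, adjusted p = 0.203), or 0.784-fold; against scramble the values were -0.15 with shRNA2 (adjusted p = 0.425) and 0.20 with shRNA1 (adjusted p = 0.633). Overlapping MAPT-AS1, an antisense gene, reached at most 0.102 FPKM.

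TUBB3 encodes the beta tubulin isotype that marks neurons, and its gene lies on chr16:89921392-89938761, plus strand. TUBB3 had 32.03 and 28.01 FPKM in shRNA2, 34.05 and 34.36 FPKM in shRNA1, and 30.07 and 44.80 FPKM in scramble. The scramble replicates enclosed both shRNA1 libraries and 1 shRNA2 library, so no difference from scramble was larger than the replicate spread. With shRNA2 the log2 fold change against scramble was -0.29 with an interval of -0.77 to 0.20 (adjusted p = 0.463), the widest interval of the 10 genes. In GENCODE v29 TUBB3 shares exons on its strand with the coding readthrough gene AC092143.1, so reads of the 2 genes could not be separated.

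The stathmins bind tubulin dimers and promote microtubule shortening; STMN1 is common to dividing and neural cells, while STMN2, STMN3 and STMN4 are neuronal forms held on membranes. STMN1, on chr1:25884181-25906991, minus strand, had 39.20 and 39.46 FPKM in shRNA2, 45.76 and 45.06 FPKM in shRNA1, and 46.26 and 45.32 FPKM in scramble. The shRNA2 libraries were lower than the other 4, and shRNA1 overlapped scramble. Fitted log2 fold changes were -0.21 for shRNA2 against scramble (SE 0.0479, interval -0.34 to -0.09, adjusted p = 0.128), -0.01 for shRNA1 against scramble (interval -0.13 to 0.11) and -0.20 for shRNA2 against shRNA1 (adjusted p = 0.186). The shRNA2 value against scramble was -0.13 with median-of-ratios scaling and -0.03 with quantile normalization. A microRNA gene, MIR3917, lies in a STMN1 exon, and the pseudogene STMN1P1 reached 0.854 FPKM.

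STMN2, whose loss of full-length RNA is known from motor neurons that lack nuclear TDP-43, lies on chr8:79610814-79666175, plus strand. STMN2 had 96.84 and 98.75 FPKM in shRNA2, 109.7 and 112.8 FPKM in shRNA1, and 103.1 and 99.45 FPKM in scramble. The groups did not overlap, but the upper shRNA2 library and the lower scramble library were less than 1 FPKM apart. The log2 fold change was -0.05 for shRNA2 against scramble (interval -0.20 to 0.10, adjusted p = 0.675), and it was above 0 under both other scalings, 0.04 with median-of-ratios scaling and 0.34 with quantile normalization. It was 0.13 for shRNA1 against scramble (interval -0.01 to 0.28, adjusted p = 0.598). For shRNA2 against shRNA1 it was -0.18 (adjusted p = 0.247), and 0.09 with quantile normalization.

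STMN3, on chr20:63639705-63657682, minus strand, behaved like TUBB3 in its scramble libraries. Its level was 13.70 and 11.78 FPKM in shRNA2, 15.07 and 14.75 FPKM in shRNA1, and 12.28 and 17.62 FPKM in scramble. Scramble enclosed both shRNA1 libraries and overlapped shRNA2. Its shRNA2 log2 fold change against scramble was -0.20 (interval -0.63 to 0.23, adjusted p = 0.562).

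STMN4, on chr8:27235323-27258420, minus strand, had 10.31 and 9.775 FPKM in shRNA2, 12.68 FPKM in both shRNA1 libraries, and 10.94 and 12.13 FPKM in scramble. The groups were again in the order shRNA2, scramble, shRNA1 from low to high, with no overlap. Log2 fold changes were -0.18 for shRNA2 against scramble (interval -0.35 to -0.02, adjusted p = 0.229), 0.13 for shRNA1 against scramble (interval -0.04 to 0.29, adjusted p = 0.674) and -0.31 for shRNA2 against shRNA1 (interval -0.47 to -0.14, adjusted p = 0.167).

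GAP43 encodes growth associated protein 43, a membrane protein of the growth cone that binds calmodulin, and lies on chr3:115623324-115721490, plus strand. GAP43 had 41.54 and 40.12 FPKM in shRNA2, 50.41 and 50.25 FPKM in shRNA1, and 47.56 and 47.64 FPKM in scramble. Its scramble replicates were the closest of the 10 genes, and its 3 groups stood apart. The log2 fold change of shRNA2 against scramble was -0.22 (SE 0.0492, interval -0.34 to -0.09, adjusted p = 0.13), or 0.861-fold, and -0.03 with quantile normalization. It was 0.08 for shRNA1 against scramble (interval -0.05 to 0.20, adjusted p = 0.748) and -0.30 for shRNA2 against shRNA1 (SE 0.0492, interval -0.42 to -0.17, adjusted p = 0.137).

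**Figure D2:**
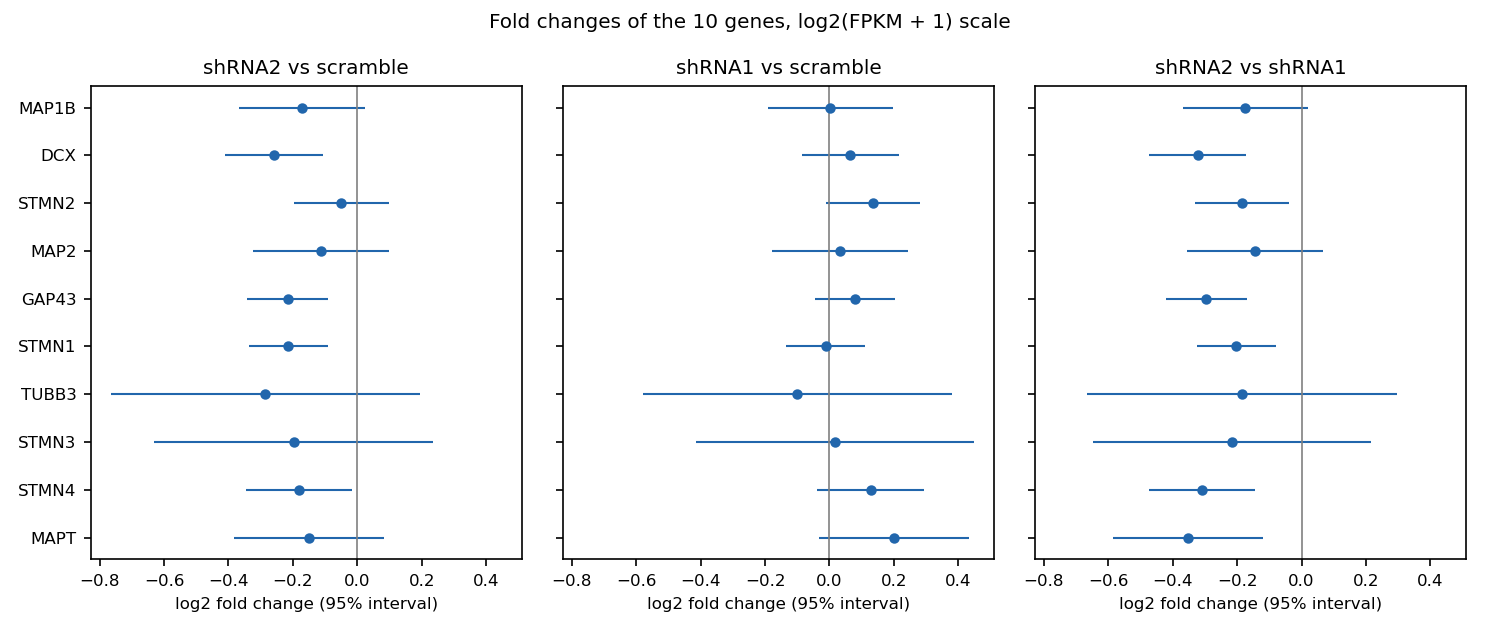
Log2 fold change of each gene on the log2(FPKM + 1) scale with its 95% interval, for shRNA2 against scramble, shRNA1 against scramble and shRNA2 against shRNA1, in order of the scramble level. The shRNA2 values are all below 0 in both of its panels (from -0.29 to -0.05 against scramble), but 4 of them lie above 0 against scramble and 1 against shRNA1 after quantile normalization; TUBB3 and STMN3 have the widest intervals.

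The counts and medians of the 10 genes in the 3 comparisons are given beside those of all genes. Against shRNA1, shRNA2 was lower without overlap in 10 of 10 genes, against 46.6% of all tested genes. The fold change was below 0 in 10 of 10, against 66.9% of all genes. It was below 0 in 10 with median-of-ratios scaling and 9 with quantile normalization, against 8996 and 9645 of all 18162 genes. The median log2 fold change of the 10 was -0.21, beside -0.06 over all genes. It was -0.13 beside 0.0013 with median-of-ratios scaling and -0.09 beside -0.01 with quantile normalization. Most genes have low levels, where this scale understates changes. At a mean of at least 5 FPKM the median was -0.20 for 9 of the 10 genes, beside -0.10 over all 4583 genes. Against scramble, the shRNA2 fold change was below 0 in 10 of 10 genes, against 67.7% of all genes. Its median was -0.19 beside -0.06 over all genes. It was below 0 in 9 genes with median-of-ratios scaling and 6 with quantile normalization, against 9115 and 9841 of all 18162 genes. The median of the 10 was -0.11 with median-of-ratios scaling and -0.03 with quantile normalization, beside -0.0006 and -0.01 over all genes. At a mean of at least 5 FPKM it was -0.20 for 9 of the 10 genes, beside -0.13 over all 4583 genes. The shRNA1 fold change against scramble was below 0 in 2 of 10 (TUBB3 and STMN1; none with quantile normalization), against 51.1% of all genes, with a median of 0.05 beside 0.00 over all genes, and of 0.16 with quantile normalization. DCX, STMN2, STMN4 and GAP43 were the 4 genes in which all 3 groups stood apart, with shRNA2 lowest and shRNA1 highest, as in 3.47% of all tested genes. These comparisons share libraries, so they are not separate evidence.

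With both hairpins pooled against scramble, no gene of the 10 separated the 4 knockdown libraries from the scramble libraries. Over all tested genes 12.6% lay entirely below scramble and 5.87% entirely above. The log2 fold change was below 0 in 8 of 10 genes, against 63.1% of all genes, with a median of -0.08 beside -0.03. It was below 0 in 6 genes with median-of-ratios scaling and 2 with quantile normalization, against 9194 and 9765 of all 18162 genes. The median was -0.03 with median-of-ratios scaling and turned to 0.07 with quantile normalization, beside -0.0016 and -0.0087 over all genes. At a mean of at least 5 FPKM it was -0.09 for 9 of the 10 genes, beside -0.08 over all 4583 genes. STMN1 had the smallest p, at a log2 fold change of -0.11 (SE 0.0415, interval -0.22 to -0.01, adjusted p = 0.337). STMN2 (0.04, interval -0.08 to 0.17) and MAPT (0.02, interval -0.18 to 0.23) were above 0.

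The base composition of the transcripts moved with the spread of the scramble replicates. Over 10065 tested protein-coding genes, the scramble replicate 2 minus replicate 1 difference of log2(FPKM + 1) had a Pearson correlation of 0.865 with transcript GC content, a description across genes that share 1 pair of libraries. The same correlation was -0.575 for the shRNA2 replicates and -0.195 for the shRNA1 replicates. In the fifth of genes with the lowest GC content (29.6 to 41.5%) the median scramble difference was -0.16, and in the fifth with the highest (57.6 to 74.5%) it was 0.32. The 10 genes followed this. TUBB3 (GC 61.6%) differed by 0.56 between scramble replicates, STMN3 (63.4%) by 0.49 and MAPT (57.2%) by 0.24. STMN4 (51.8%) differed by 0.14 and GAP43 (48.4%) by 0.00. DCX (43.2%), MAP2 (44.2%), STMN2 (44.5%), MAP1B (45.9%) and STMN1 (46.1%) were lower in replicate 2, by values from -0.21 in MAP2 to -0.03 in STMN1.

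**Figure D3:**
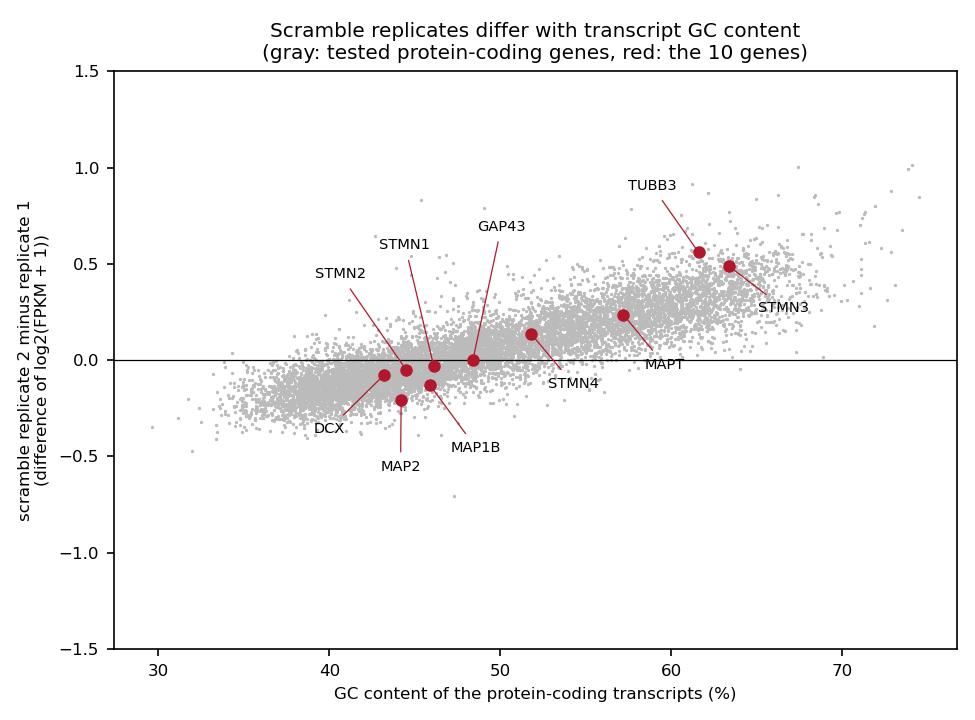
Difference of log2(FPKM + 1) between scramble replicates 2 and 1 against the GC content of the protein-coding transcripts, for 10065 tested genes (gray) and the 10 genes (red, labelled). The difference climbs with GC content (Pearson r 0.865 across genes), and TUBB3 (0.56) and STMN3 (0.49) are the highest of the 10.

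The fit was repeated on the protein-coding genes with each library's trend on GC content removed, a choice made after the data were seen that also centres the libraries on each other. The median scramble SD of these genes was 0.0432 after the step and 0.0987 before it. In that fit 1 of the 10 genes was lower with shRNA2 than with scramble, against 9.81% of genes lower and 17.5% called in all: DCX fell by 0.18 on the log2 scale (adjusted p = 0.0256). STMN1 (-0.12, adjusted p = 0.0521) and GAP43 (-0.11, adjusted p = 0.0694) did not pass. With shRNA1, 2 of the 10 were higher than in scramble, against 4.06% of genes higher and 8.63% called in all. MAPT rose by 0.20 (adjusted p = 0.0115) and STMN4 by 0.15 (adjusted p = 0.0321) on the log2 scale. With both hairpins together none of the 10 was called, against 11.1% of genes.

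Between the hairpins 5 of the 10 genes were lower in shRNA2 than in shRNA1 in that fit, against 10.3% of genes lower and 19.4% called in all. On the log2 scale DCX fell by 0.26 (adjusted p = 0.00549), MAPT by 0.24 (adjusted p = 0.0027), STMN4 by 0.22 (adjusted p = 0.00385), GAP43 by 0.22 (adjusted p = 0.0065) and STMN1 by 0.13 (adjusted p = 0.0364). The other 5 genes had log2 values of -0.12 (STMN2, adjusted p = 0.0919) to -0.06 (TUBB3, adjusted p = 0.594). Without the GC step none of the 10 passed on the same protein-coding genes, of which 2.43% were called between the hairpins, 3.85% for shRNA2 against scramble, 0.219% for shRNA1 against scramble and 1.01% for both hairpins against scramble. The same 5 genes passed, each at an adjusted p between 0.0417 and 0.0448, when the 4 hairpin libraries were fitted alone, against 4.42% of genes called lower.

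**Figure D4:**
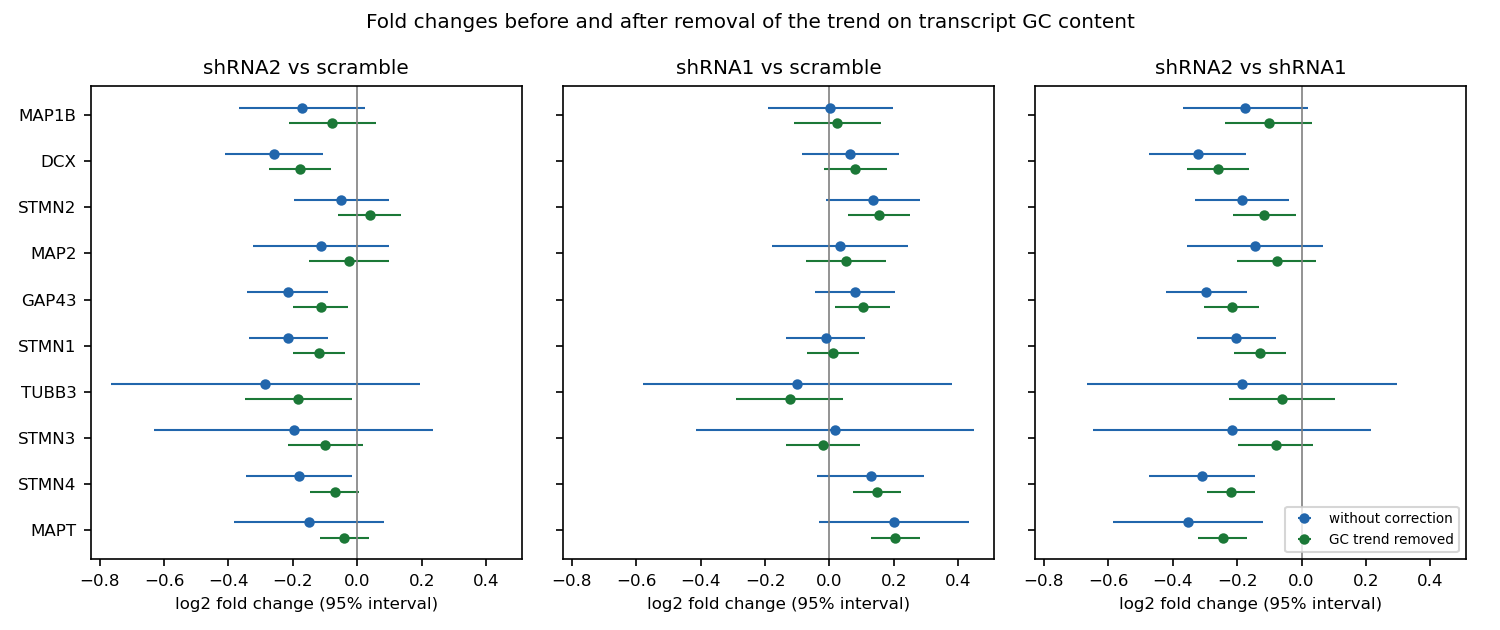
Log2 fold changes with 95% intervals before (blue, all tested genes) and after (green, protein-coding genes) the removal of each library's trend on GC content, by comparison. Intervals of TUBB3, STMN3 and MAPT shrink the most; DCX against scramble is -0.26 before and -0.18 after with shRNA2, and STMN2 changes side, to 0.04, as it does with both other scalings.

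A single scramble library decided some of these calls. Without scramble replicate 1, the shallowest library, 5 of the 10 genes were called lower with shRNA2 than with scramble, against 11.5% of genes. They were TUBB3 (-0.57, adjusted p = 0.0386), STMN4 (-0.25, adjusted p = 0.0441), DCX (-0.22, adjusted p = 0.0346), GAP43 (-0.22, adjusted p = 0.0404) and STMN1 (-0.20, adjusted p = 0.0362). Without scramble replicate 2, DCX alone was called lower (-0.30, adjusted p = 0.0455), against 2.17% of genes. Between the hairpins, leaving out either scramble library gave 5 called genes, DCX, MAPT, STMN1, STMN4 and GAP43, all lower, against 4.53% of genes lower without scramble replicate 1 and 4.72% without replicate 2. The remaining scramble library was then assumed to vary like the other groups.

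Of the other genes of the same machinery none passed the test over all 18162 genes in the 6 libraries in any comparison, nor under either other scaling. Their calls in the other fits without the GC step were not counted. Of 12 tubulin isotypes 11 were tested, and TUBA4A was below a mean of 0.1 FPKM. TUBA1A, the main alpha tubulin of developing neurons, had 331.9 and 320.5 FPKM in shRNA2, 376.9 and 377.8 FPKM in shRNA1, and 386.9 and 452.5 FPKM in scramble. The median log2 fold change of the tubulins was -0.27 with shRNA2 against scramble and -0.18 with shRNA1 against scramble. With quantile normalization these medians were -0.04 and -0.10. With the GC trend removed 4 of the 11 were lower with shRNA2 than in scramble, against 9.81% of all genes. With shRNA1 3 were lower, against 4.57%. Between the hairpins 2 were higher and 1 lower in shRNA2, against 9.09% of all genes higher and 10.3% lower. TUBA1A, TUBB2B, TUBG1 and TUBB6 had the smallest p of the list for both hairpins together, with log2 fold changes of -0.25, -0.23, -0.28 and -0.17 (adjusted p = 0.262 to 0.345).

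Of 37 other microtubule-associated proteins and regulators 35 were tested. Their median log2 fold change was -0.14 with shRNA2 against scramble, 0.01 with shRNA1 against scramble and -0.14 for shRNA2 against shRNA1. Over all genes these medians were -0.06, -0.003 and -0.06. For shRNA2 against shRNA1, 32 of the 35 were below 0, against 66.9% of all genes. Under either other scaling 28 were below 0, against 8996 (median-of-ratios) and 9645 (quantile) of all 18162 genes. CDK5R1, the activator of the neuronal kinase CDK5, had 13.06 and 12.20 FPKM in shRNA2, 18.35 and 17.72 FPKM in shRNA1, and 17.14 and 18.71 FPKM in scramble. Its log2 fold change was -0.47 with shRNA2 against scramble (adjusted p = 0.0641), and shRNA2 lay below the other 4 libraries. MAP1A (-0.26), MAP6 (-0.28) and SVBP (-0.24), a partner of the tubulin detyrosinating vasohibins, were also below 0 with shRNA2 against scramble. With CDK5R1 these genes had the smallest p of the list for both hairpins together. In the fit with the GC trend removed CDK5R1 fell by 0.36 (adjusted p = 0.00116) with shRNA2 against scramble, and 9 of the 35 genes were lower and none higher, against 9.81% of all genes lower and 7.69% higher.

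All 15 axonal kinesin, dynein and dynactin genes were below 0 for shRNA2 against shRNA1, with a median of -0.24. Over all genes 66.9% were below 0, with a median of -0.06. Under either other scaling 13 of the 15 were below 0, against 8996 (median-of-ratios) and 9645 (quantile) of all 18162 genes. KIF3B, a subunit of the kinesin-2 motor, had a log2 fold change of -0.28 (adjusted p = 0.14), and DYNC1I1, an intermediate chain of dynein, of -0.33 (adjusted p = 0.167) at 0.689 and 0.816 FPKM in shRNA2 and 1.206 and 1.192 FPKM in shRNA1. DYNC1H1 (-0.18) and DYNC1I2 (-0.11) were also below 0. With the GC trend removed 8 of the 15 were lower in shRNA2 than in shRNA1 and none was higher, against 10.3% of all genes lower and 9.09% higher. In the same fit 3 of the 15 were lower with shRNA2 than in scramble, against 9.81% of all genes.

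Of 27 other growth cone and axon outgrowth genes, 26 were below 0 for shRNA2 against shRNA1, with a median of -0.17. Over all genes 66.9% were below 0, with a median of -0.06. In the list 22 were below 0 with median-of-ratios scaling and 19 with quantile normalization, against 8996 and 9645 of all 18162 genes. BASP1, a growth cone membrane protein related in function to GAP-43, had 55.29 and 54.83 FPKM in shRNA2, 73.34 and 72.66 FPKM in shRNA1, and 70.13 and 77.57 FPKM in scramble. Its log2 fold change was -0.42 for shRNA2 against scramble (adjusted p = 0.0788), and with the GC trend removed BASP1 fell by 0.30 (adjusted p = 0.00195). PFN2, an actin-binding profilin, had -0.27, while the adhesion protein gene NRCAM (0.13) and the actin-binding gene ABLIM1 (0.13) were above 0. In that fit 6 of the 27 were lower and 2 higher with shRNA2 against scramble, and 6 were higher and 1 lower with shRNA1 against scramble. Over all genes 9.81% were lower and 7.69% higher with shRNA2, and 4.06% were higher and 4.57% lower with shRNA1. The neuronal intermediate filament genes INA, NEFL and NEFM, which give axons their calibre, had log2 fold changes of -0.05, -0.03 and -0.02 with shRNA2 against scramble, and their median was 0.05 with median-of-ratios scaling and 0.15 with quantile normalization.

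**Figure D5:**
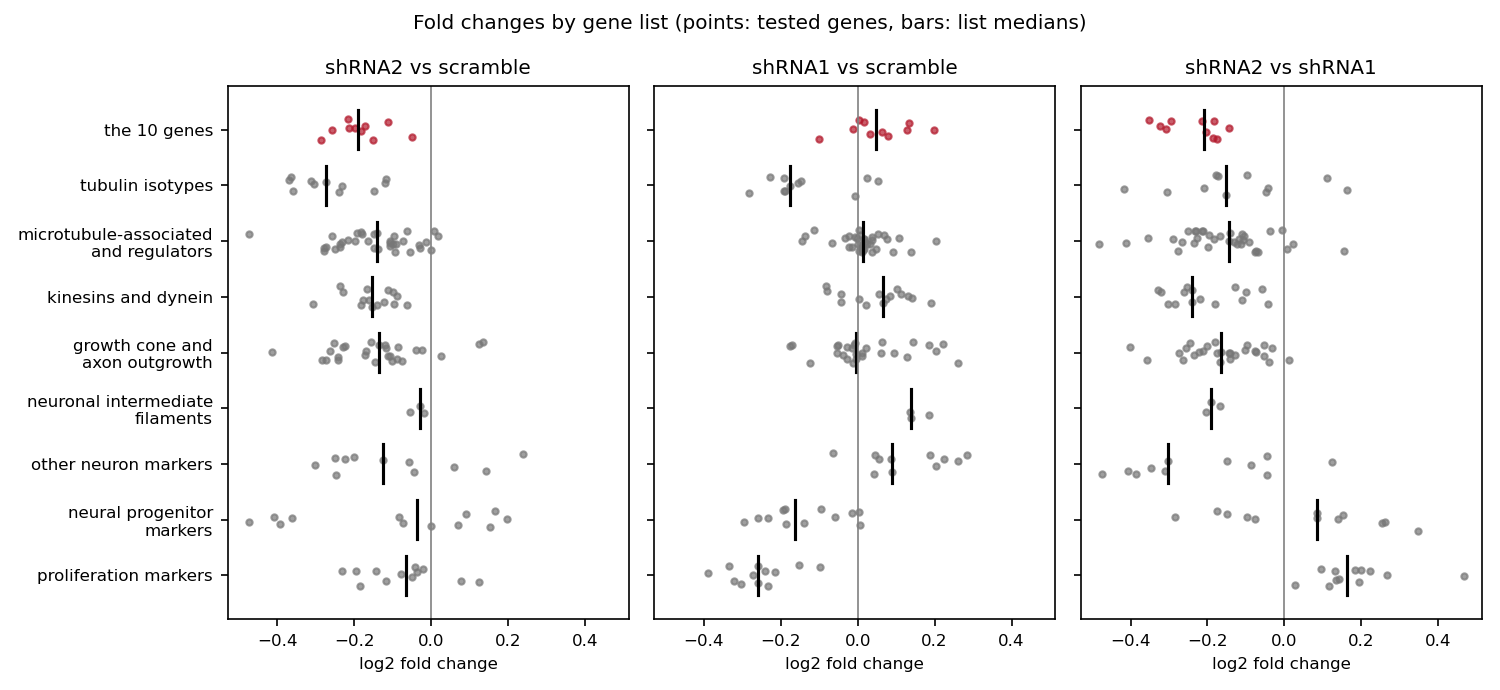
Log2 fold changes of the tested genes of each list (points) with list medians (bars), without the GC step, by comparison. For shRNA2 against shRNA1 the medians of the neuronal lists lie between -0.30 and -0.14 and those of progenitor and proliferation markers at 0.09 and 0.16, and these signs held under both other scalings; against scramble several signs of the shRNA2 medians, such as that of the growth cone list (-0.14), turned with quantile normalization (0.02).

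The cells held both neurons and progenitors by their markers. The medians of the neuron and the progenitor markers lay on opposite sides of 0 between the hairpins, though the progenitor markers went both ways. No single gene passed the test over all 18162 genes in the 6 libraries. The summed level of 16 other neuron markers was 121.3 and 117.0 FPKM in shRNA2, 144.3 and 145.7 FPKM in shRNA1, and 129.6 and 136.0 FPKM in scramble; NEUROD2 and NEUROD6, of maturing cortical neurons, were below a mean of 0.1 FPKM. The summed level of 12 neural progenitor markers was 215.1 and 209.6 FPKM in shRNA2, 200 and 199.8 FPKM in shRNA1, and 212.6 and 230.6 FPKM in scramble. That of 12 proliferation markers was 133.7 and 133.6 FPKM in shRNA2, 114.4 and 116.8 FPKM in shRNA1, and 145.4 and 138.7 FPKM in scramble. By these sums the shRNA1 libraries were highest in neuron markers and lowest in progenitor and proliferation markers. The sums were not scaled to the FPKM sum of all genes. As a share of it, scramble replicate 2 was the lowest in progenitor markers. In proliferation markers its share lay between those of the shRNA1 libraries. The progenitor markers were split between the hairpins. PAX6, VIM, HES1, HES5 and SLC1A3 had a higher mean in shRNA1 than in shRNA2, while NES had 46.72 FPKM in shRNA1 and 56.20 FPKM in shRNA2.

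No gene of these 3 lists passed the test over all 18162 genes in the 6 libraries in any comparison, nor under either other scaling. Their calls in the other fits without the GC step were not counted. For shRNA2 against shRNA1, 66.9% of all genes were below 0, with a median log2 fold change of -0.06. With median-of-ratios scaling and quantile normalization 8996 and 9645 of all 18162 genes were below 0. The median was -0.30 for the 11 tested neuron markers, of which 10 were below 0 (8 under either other scaling). It was 0.09 for the 12 progenitor markers, of which 5 were below 0 (4 under either other scaling). For the proliferation markers it was 0.16, and all 12 were above 0 under each scaling. By the smallest p for both hairpins against scramble, the named neuron markers were TBR1 (0.26), SYT1 (0.16), NSG1 (-0.13) and MYT1L (-0.07). The progenitor markers so named were PAX6 (-0.34), VIM (-0.33), SLC1A3 (-0.33) and HES1 (-0.27), and the proliferation markers PCNA (-0.25), MCM6 (-0.27), RRM2 (-0.25) and MKI67 (-0.18). In that comparison 6 of 11 neuron, 8 of 12 progenitor and 11 of 12 proliferation markers were below 0, against 63.1% of all genes. The progenitor median was -0.05. It was 0.02 with quantile normalization, where 6 of the 12 progenitor markers were below 0. With the GC trend removed, 11 of 12 proliferation markers and 6 of 12 progenitor markers were higher in shRNA2 than in shRNA1, and 1 progenitor marker, SLC1A3, was lower. In the same comparison 5 of 10 tested neuron markers were lower and 1, ELAVL4, was higher, and over all genes 9.09% were higher and 10.3% lower. Against scramble, shRNA1 had 8 proliferation markers lower and none higher, and shRNA2 had 1 higher and none lower. Of the 12 progenitor markers, 5 were lower and none higher with shRNA1, and 4 were lower and 4 higher with shRNA2. Of the 10 tested neuron markers, 4 were higher and none lower with shRNA1, and 2 were higher and 3 lower with shRNA2. Over all genes 4.57% were lower and 4.06% higher with shRNA1, and 9.81% lower and 7.69% higher with shRNA2. The part of the share of neurons and of cycling cells in the values of the 10 genes was not tested.

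Markers of other cell types ranged from near 0 to the level of the less abundant of the 10 genes, with some called differences. GFAP, AQP4 and ALDH1L1 of astrocytes, FOLR1 of choroid plexus, DCN of mesenchyme, POU5F1 and NANOG of pluripotent cells and all 4 markers of microglia and endothelium (AIF1, CX3CR1, PECAM1, CDH5) were below a mean of 0.1 FPKM. GJA1, a gap junction gene, had 5.403 and 5.588 FPKM in shRNA2, 3.860 and 3.858 FPKM in shRNA1, and 11.11 and 10.44 FPKM in scramble, and fell by 1.07 on the log2 scale for both hairpins together (adjusted p = 0.013). TTR, which encodes transthyretin, abundant in choroid plexus, had 0.0577 and 0.0632 FPKM in shRNA2, 0.497 and 0.785 FPKM in shRNA1, and 6.026 and 6.633 FPKM in scramble. TTR fell by 2.48 and COL3A1, a fibrillar collagen gene, by 1.77 in that comparison (adjusted p = 0.00761 each). LIN28A, which encodes an RNA-binding protein of stem and early progenitor cells, rose by 1.05 and DPPA4 by 0.87 with shRNA2 against scramble (adjusted p = 0.0244 and 0.0353). The summed level of 4 pluripotency markers was 11.61 and 11.66 FPKM in shRNA2, 5.938 and 6.037 FPKM in shRNA1, and 5.006 and 4.981 FPKM in scramble. The summed level of 5 astrocyte markers was 5.663 and 5.896 FPKM in shRNA2, 4.193 and 4.094 FPKM in shRNA1, and 11.41 and 10.85 FPKM in scramble. That of 5 choroid plexus markers was 15.31 and 16.10 FPKM in shRNA2, 12.70 and 12.93 FPKM in shRNA1, and 18.78 and 20.00 FPKM in scramble. Single genes carried these sums, GJA1 that of the astrocyte markers and OTX2, with 14.13 and 14.68 FPKM in shRNA2, 11.01 and 10.83 FPKM in shRNA1, and 11.22 and 11.78 FPKM in scramble, most of that of the choroid plexus markers. For 5 mesenchymal markers it was 0.453 and 0.344 FPKM in shRNA2, 1.136 and 1.047 FPKM in shRNA1, and 5.358 and 5.986 FPKM in scramble. The choroid plexus markers OTX2 (0.12) and KCNJ13 (-0.08) and the oligodendrocyte lineage marker OLIG1 (-0.06) did not pass for both hairpins together. The part of these other cell types in the values of the 10 genes was not tested.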

How the data were processed

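The data were 6 ribosomal RNA-depleted libraries in 3 groups of 2 (shRNA2, shRNA1, scramble). The authors deposited 1 FPKM value per gene and library, per the file headers. GRCh38, Trimmomatic 0.39, HISAT2 2.1.0, SAMtools 1.9 and featureCounts 2.0.1 are named by the submitters' processing notes. Not given in the sources used here are the gene annotation, how strand was set and how multi-mapping reads were handled, so overlapping and antisense genes cannot be separated with certainty. Library totals were recovered from the steps of low FPKM values, and read numbers per gene are approximate, from GENCODE v29 exon lengths.

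The analysis used log2(FPKM + 1), in genes averaging 1 FPKM or more. A linear model with a term per group was fitted in limma 3.58.1 under R 4.3.3 (empirical Bayes with trend), with p-values adjusted by Benjamini-Hochberg across every gene in the fit, after it was tested on simulated data. Figures used Python 3.11.15, pandas 2.3.3 and matplotlib 3.10.9. GC content is that of GENCODE v29 protein-coding transcripts, and its lowess trend (span 0.3) was removed per library in 1 alternative. The 10 genes and the 14 other lists were chosen with earlier results of these data known. All 10 genes were named, with up to 4 genes per list by the smallest p for both hairpins against scramble and any called gene; other genes were named after their values were seen. Of the genes under this rule, 1 is not reported here. NSG2 was matched by its older symbol. Alternatives were another pseudocount, other filters, median-of-ratios scaling, quantile normalization, a replicate block, only the groups compared, and leaving out each library.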

Additional observations from a re-analysis of the deposited data

How the results depend on the processing

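None of the 10 genes was called in any of the 4 comparisons with a pseudocount of 0.1, a minimum mean of 5 FPKM (which removes MAPT), no filter, either other scaling, the replicate block or only protein-coding genes. Genes of the 10 were called with the GC trend removed (2 for shRNA1 against scramble, 1 for shRNA2 against scramble, 5 for shRNA2 against shRNA1), with only the hairpin groups fitted (5 for shRNA2 against shRNA1), and when 1 library was left out (0 to 5 for shRNA2 against scramble, with 5 without scramble replicate 1, and 0 to 5 for shRNA2 against shRNA1, with 5 without either scramble library). Protein-coding genes only and the GC step were chosen after seeing the data. The replicate numbers did not pair the libraries (correlations of deviations of -0.15, -0.008 and 0.012), and blocking on them left 1 gene called for both hairpins and 0 in each other comparison.

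The count of called genes over the whole table depended strongly on the setting. For both hairpins against scramble it was 15, and 35 at a minimum of 5 FPKM, 0 without a filter, 28 with median-of-ratios scaling (10 higher, 18 lower), 30 with quantile normalization (12 higher, 18 lower), 102 on protein-coding genes, 1113 with the GC trend removed and 0 to 507 leaving out 1 library (507 without scramble replicate 1). For shRNA1 against scramble it was 6, and 2 with a pseudocount of 0.1, 3 at 5 FPKM, 0 without a filter, 0 with only the groups compared, 22 on protein-coding genes, 869 with the GC trend removed and 0 to 1 leaving out 1 library. For shRNA2 against scramble it was 114 (34 higher, 80 lower), and 261 at 5 FPKM, 0 without a filter, 71 with quantile normalization (37 higher, 34 lower), 91 with median-of-ratios scaling (43 higher, 48 lower), 1 with only the groups compared, 387 on protein-coding genes, 1761 with the GC trend removed and 0 to 2418 leaving out 1 library. For shRNA2 against shRNA1 it was 0, and 46 at 5 FPKM, 957 with only the groups compared, 245 on protein-coding genes, 1952 with the GC trend removed and 0 to 1029 leaving out 1 library. The cause was not tested.

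Log2 fold changes of the 10 genes changed sign as follows. With quantile normalization they became, for both hairpins, 0.15 (DCX), 0.13 (MAP2), 0.11 (MAP1B), 0.031 (STMN1), 0.060 (STMN4) and 0.077 (GAP43). In the same setting they became 0.0085 (TUBB3) and 0.088 (STMN1) for shRNA1 against scramble, 0.12 (DCX), 0.12 (MAP2), 0.085 (MAP1B) and 0.34 (STMN2) for shRNA2 against scramble, and 0.089 (STMN2) for shRNA2 against shRNA1. With median-of-ratios scaling they became 0.0040 (MAP2) and 0.013 (STMN4) for both hairpins and 0.036 (STMN2) for shRNA2 against scramble. With the GC trend removed they became 0.012 (MAP2) and 0.038 (STMN4) for both hairpins, 0.011 (STMN1) and -0.020 (STMN3) for shRNA1, and 0.038 (STMN2) for shRNA2 against scramble. Leaving out 1 library gave, for both hairpins, -0.47 to 0.087 (TUBB3), -0.14 to 0.065 (MAP2), -0.094 to 0.14 (MAPT), -0.33 to 0.15 (STMN3) and -0.096 to 0.042 (STMN4). For shRNA1 against scramble it gave -0.38 to 0.18 (TUBB3), -0.072 to 0.14 (MAP2), -0.064 to 0.068 (MAP1B), -0.026 to 0.0029 (STMN1) and -0.23 to 0.26 (STMN3), and for shRNA2 against scramble -0.44 to 0.045 (STMN3). These turns came without a scramble library, and for MAP1B also without shRNA1 replicate 2. The other signs of the 10 genes held under the alternatives run.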
